A study of Arabidopsis thaliana with 8 samples.

Results

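The comparison set the *fhy3* mutant of *Arabidopsis thaliana* against wild type at subjective dawn, the hour at which lights would have come on had the light and dark cycles gone on. Its members were 4 of the 8 arrays of the series, chosen by their labels alone: *fhy3*-4 after 24 h and 48 h in constant red light, and wild type No-0 at the same times. All were whole seedlings, about 100 pooled in each sample, grown on sucrose medium for 7 days in cycles of 12 h white light and 12 h dark before the move to red light. The mutant was represented by 1 allele, described by the study as isogenic with its No-0 wild type. There was 1 array for each genotype and time, so the 24 h and 48 h arrays served as 2 values a side, and the spread between them holds the second day in red light as well as the difference between samples. Of 22810 probe sets on the ATH1 array, a chip that measures each transcript by a set of short probes, 17846 had a mean signal of at least 20 over the 4 arrays and were described. Of these, 9901 could be given 1 gene name.

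FHY3 is a transcription factor that arose from a transposase. With its relative FAR1 it switches on genes that carry phytochrome A into the nucleus, and it also acts on the path by which red light reaches the circadian clock. In that clock the MYB proteins CCA1 and LHY are made at dawn and repress evening genes, the pseudo-response regulators PRR9, PRR7, PRR5, and TOC1 follow in turn through the day, and LUX, ELF3, and ELF4 form a complex that acts in the evening. The gene that is mutated was not among the probe sets given a name, so the genotype labels were not checked on its own signal.

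The arrays were close in scale, with median signals of 138 and 140 in *fhy3*, against 137 and 141 in wild type. Rank correlations between pairs of the 4 arrays, over all probe sets, ran from 0.979 to 0.99. Leaf genes were bright on every array, with summed signals over 9 markers of 37401 and 36207 in *fhy3*, against 43019 and 44402 in wild type. The 3 root markers measured summed to 482 and 607 in *fhy3*, against 333 and 357 in wild type. Most of that gap was in *EXPA7* and *EXPA18*, expansin genes of root hairs given further on. None of the 7 flower and pollen genes that had a name reached the minimum signal. In whole seedlings, fewer cells of a type and less RNA per cell cannot be told apart.

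Most transcripts had like signals in both genotypes at dawn. Of the 17846 probe sets, 15009 (84.1%) lay within 1.5-fold of wild type at both times. On the log2 scale, with signals under 20 set to 20, the difference between genotypes had an SD over probe sets of 0.392 at 24 h and 0.401 at 48 h. The change over a day within a genotype had an SD of 0.284 in *fhy3* and 0.344 in wild type, so the spread between genotypes was the larger at both times. At 24 h, 249 probe sets were at least 2-fold higher and 189 at least 2-fold lower in *fhy3*. At 48 h the counts were 267 and 183. A probe set had to pass at both dawns to be counted below, which left 84 higher (0.471%) and 96 lower (0.538%), while 5 were 2-fold apart in opposite directions on the 2 days. With 1 array left out, the lone array was compared with both of the other genotype, so it entered both differences. The count of higher probe sets then rose or fell with the array left out. The part of single arrays in this cannot be told from that of the changed rule. The difference at 24 h correlated with that at 48 h with r of 0.524 across probe sets, which are not independent replicates.

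**Figure D1:**
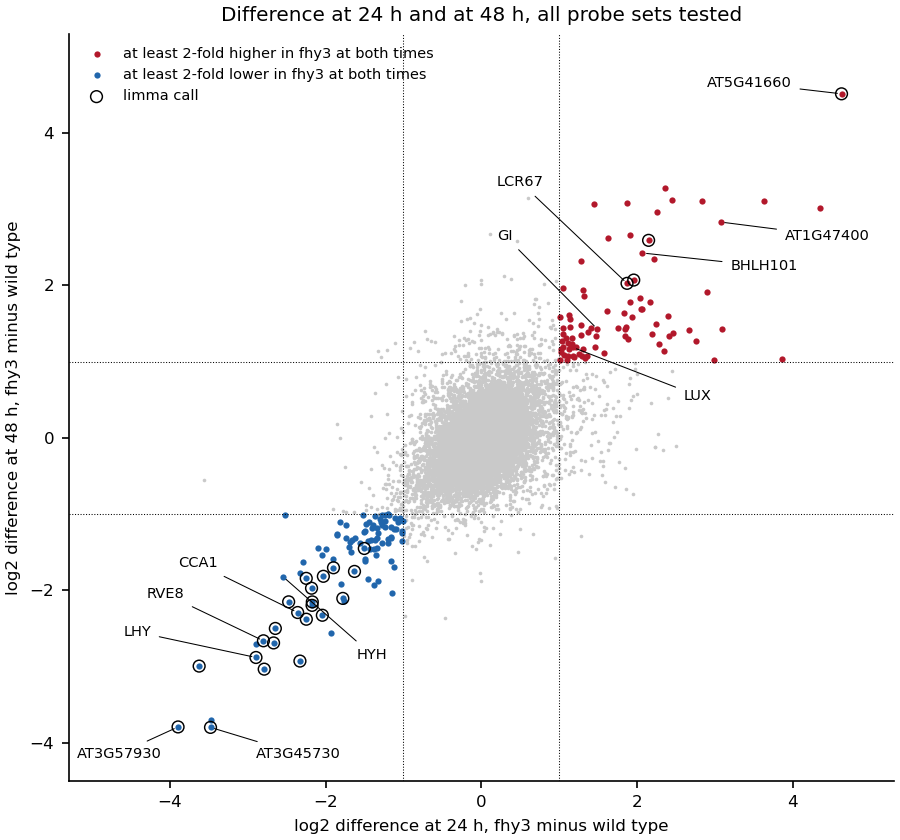
Log2 difference, *fhy3* minus wild type, at 24 h (horizontal axis) and at 48 h (vertical axis) for the 17846 probe sets, with dotted lines at 2-fold. The 84 probe sets at least 2-fold higher and the 96 at least 2-fold lower at both times lie in 2 corners, and black rings mark the 26 calls of the test.

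With 2 arrays a side, limma called 26 probe sets at an adjusted p under 0.05, 4 higher in *fhy3* (0.0224%) and 22 lower (0.123%), and all 26 were also 2-fold apart at both times. At an unadjusted p under 0.05 there were 2699. Of the 4 higher, 2 had a gene name, and of the 22 lower, 8 had one. With 1 of the 4 arrays left out the test had 1 residual df and its lowest adjusted p ran from 0.155 to 0.7, so none could be called, and this says little of the stability of single genes. The fitted log2 differences changed little: with 1 array left out they ran from 4.51 to 4.63 for AT5G41660, from -2.98 to -2.80 for *LHY*, and from -2.35 to -2.30 for *CCA1*.

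Of the 8 named genes that fell, 3 were morning genes of the clock. *LHY* had signals of 252 and 224 in *fhy3* at 24 h and 48 h, against 1878 and 1653 in wild type. *CCA1* had 151 and 157 in *fhy3*, against 776 and 770 in wild type. *RVE8*, a MYB gene related to both that activates evening genes, had 21.5 and 25.1 in *fhy3*, against 150 and 159 in wild type. In each, both mutant arrays were far below both wild type arrays, and the 2 dawns of a genotype were near each other. The fitted differences were -2.89 ± 0.13 for *LHY*, -2.33 ± 0.11 for *CCA1*, and -2.73 ± 0.13 for *RVE8* (log2, ± SE), each with an adjusted p of 0.0129. These are 7.4-fold, 5.01-fold, and 6.64-fold lower signals in *fhy3*.

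The probe sets of *LHY*, *CCA1*, *RVE8*, the pseudo-response regulators, and *LUX*, *ELF3*, and *ELF4* were named through their fitted means in the study's clock table, and that of *GI* through the probe table. For *LHY*, *CCA1*, and *RVE8* the means were matched in 1 genotype only, and for the others named this way in 2. Among the evening genes, *GI*, a protein that holds the clock to its period, had 514 and 635 in *fhy3*, against 183 and 236 in wild type, 2.75-fold higher (log2 difference 1.46 ± 0.19, adjusted p = 0.0838). *LUX*, the DNA-binding member of the evening complex, had 334 and 299.9 in *fhy3*, against 148 and 132 in wild type, 2.27-fold higher (1.18 ± 0.13, adjusted p = 0.0722). *TOC1*, a repressor of the morning genes, had 418 and 426 in *fhy3*, against 216 and 239 in wild type, 1.86-fold higher (0.89 ± 0.12, adjusted p = 0.0881). The arrays of the 2 genotypes did not overlap in any of these 3, with *fhy3* above, as in 23.2% of all probe sets. None of the 3 passed the test. With time in red light as a block, *GI* (adjusted p = 0.0386) and *LUX* (adjusted p = 0.0484) passed. That fit had 1 residual df, against 2 in the main test, as for each block result given below.

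The other clock genes lay closer to wild type. *PRR7* had 190.2 and 199 in *fhy3*, against 118 and 139 in wild type, 1.52-fold higher (0.60 ± 0.13, adjusted p = 0.174). Its genotypes did not overlap, with *fhy3* above, as in 23.2% of all probe sets. *PRR5* had 179 and 216 in *fhy3*, against 173 and 219 in wild type, and *PRR9* had 39.1 and 34.5 in *fhy3*, against 43.8 and 35.2 in wild type, so that in both the genotypes overlapped. *ELF3* had 667 and 579 in *fhy3*, against 623 and 649 in wild type. *ELF4*, a known direct target of FHY3, had 83.7 and 130.4 in *fhy3*, against 134 and 133 in wild type: it was lower at 24 h, by 0.68 on the log2 scale, and differed by 0.03 at 48 h. Of the 11 clock genes measured, 3 passed the test, all lower, where 0.123% of all probe sets tested were called lower and 0.0224% higher. The median log2 difference of the 11 was -0.03, against -0.00 over all probe sets tested. Large differences of both signs lay on either side of it.

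**Figure D2:**
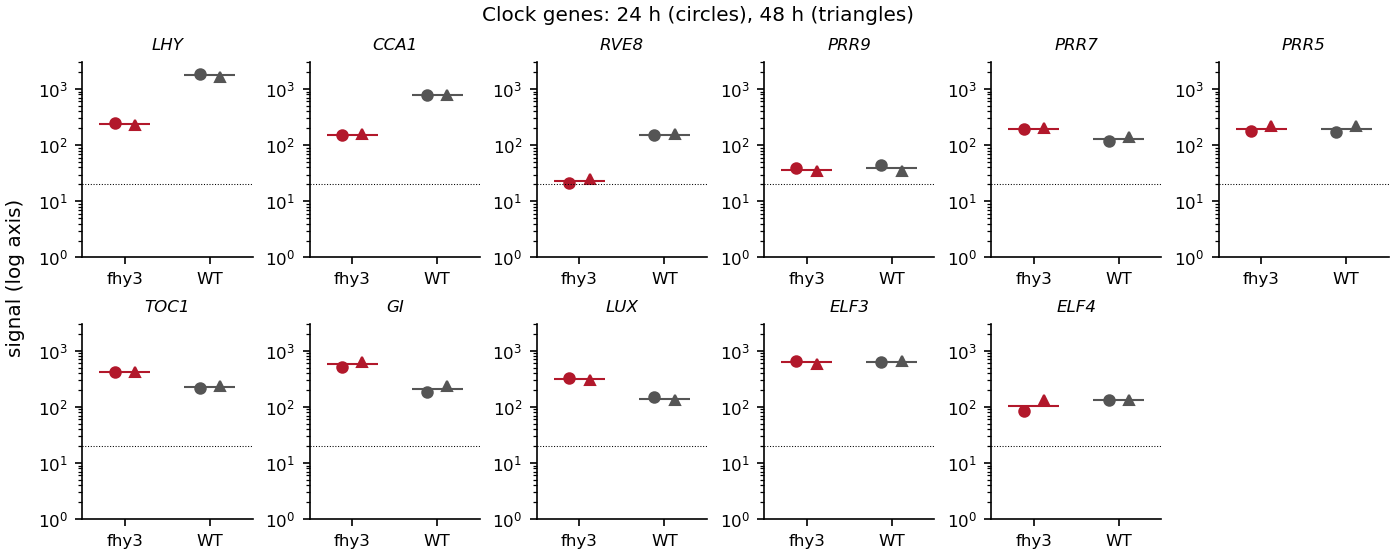
Signals of 11 clock genes at subjective dawn on a log axis, *fhy3* left and wild type right in each panel, with circles for 24 h, triangles for 48 h, a bar at their geometric mean, and a dotted line at the floor of 20. *LHY*, *CCA1*, and *RVE8* are lower in *fhy3* and *GI*, *LUX*, *TOC1*, and *PRR7* higher at both times, while *PRR5*, *PRR9*, and *ELF3* overlap.

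Light signalling genes with a name were few. *HYH*, a bZIP factor related to HY5, had 19.6 and 17.9 in *fhy3*, against 117 and 70.7 in wild type. Both mutant signals were under the floor of 20, which makes the fitted 4.55-fold a ratio to that floor (log2 difference -2.18 ± 0.26, adjusted p = 0.074, and 0.0477 with time as a block). *FHL*, which carries phytochrome A into the nucleus and is a known direct target of FHY3, had 199.8 and 177 in *fhy3*, against 324 and 541 in wild type (-1.15 ± 0.27, adjusted p = 0.186). The gap in *FHL* was larger at 48 h, since the wild type signal was higher on that day. *HEMB1*, another known target and an enzyme early in chlorophyll synthesis, had 1087 and 1046 in *fhy3*, against 1461 and 1313 in wild type (-0.38 ± 0.12, adjusted p = 0.268). *HAT2*, a homeobox gene that responds to shade, overlapped between genotypes, with 352 and 435 in *fhy3*, against 363 and 372 in wild type. The 4 known targets that were measured, *CCA1*, *ELF4*, *FHL*, and *HEMB1*, all had both *fhy3* signals below both wild type signals, where 26.1% of all probe sets did, and 1 of them, *CCA1*, passed the test. The list was drawn up with the study's results known, so its direction is not independent evidence. *AFR*, an F-box gene of phytochrome A signalling that was picked out after its values were seen, had 30.8 and 31.1 in *fhy3*, against 65.5 and 60.1 in wild type (-1.02, adjusted p = 0.0725).

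AT5G41660 and AT3G57930 had next to no signal in one genotype, and the annotation used gives neither a name beyond its locus code. Their low sides were under the floor of 20, so the sizes of the differences cannot be ranked. Their SE and adjusted p also leave out the spread of the low side. The same holds for every gene with both signals of a genotype under the floor. AT5G41660 had 495 and 456 in *fhy3*, against 10.3 and 7.7 in wild type. With the wild type values set to the floor, it was 23.8-fold higher (log2 difference 4.57 ± 0.11, adjusted p = 0.00411). The reverse pattern was seen in AT3G57930, with 4.1 and 2.1 in *fhy3*, against 298 and 277 in wild type (-3.84 ± 0.11, adjusted p = 0.0045). AT2G42900 had 11.6 and 13.2 in *fhy3*, against 125 and 113 in wild type, and AT3G07580 had 24.5 and 15.4 in *fhy3*, against 169 and 164 in wild type, both with an adjusted p of 0.0129. Both *fhy3* signals of AT2G42900 were under the floor, as was that of AT3G07580 at 48 h. These 4 kept their gap at the other times of the series: AT5G41660 had 490.1 and 511 in *fhy3* at 32 h and 40 h, against 11 and 10.1 in wild type, and AT3G57930 had 2.2 and 2 in *fhy3*, against 297 and 269 in wild type. In the test of dawn against 32 h and 40 h described further on, the log2 difference of these 4 ranged from -0.54 in AT3G07580 to 0.15 in AT2G42900, and none passed.

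Another 3 named genes passed. The defensin gene *LCR67*, also called *PDF1.1*, had 73.2 and 81.5 in *fhy3*, against 15.9 and 6.9 in wild type (1.95 ± 0.12, adjusted p = 0.0181). Both wild type signals were under the floor of 20, so this difference is relative to that floor and its SE leaves out their spread. With no floor, *LCR67* and AT3G07580 lost their calls. AT1G77480 had 67.7 and 67.2 in *fhy3*, against 306 and 309 in wild type, 4.55-fold lower (-2.19 ± 0.11, adjusted p = 0.0129). AT3G45730 had 22.4 and 25.5 in *fhy3*, against 250.1 and 355 in wild type at dawn (-3.64 ± 0.20, adjusted p = 0.0155), while at 40 h it had 327 in *fhy3*, against 33.8 in wild type, so that the single arrays at 40 h lay the other way round (dawn against 32 h and 40 h, -3.92 ± 0.29, adjusted p = 0.0938). Among the 14 lower calls with no gene name, the brightest had 842 and 889 in *fhy3*, against 5353 and 5742 in wild type.

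**Figure D3:**
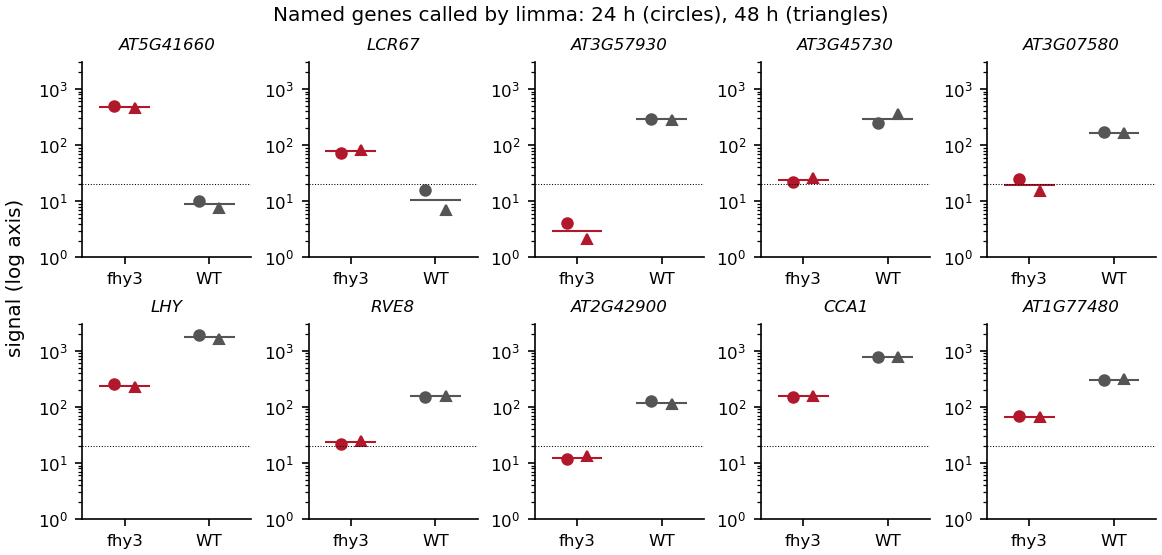
Signals of the 10 named genes called by limma, on a log axis, *fhy3* left and wild type right in each panel, with circles for 24 h, triangles for 48 h, a bar at their geometric mean, and a dotted line at the floor of 20. AT5G41660 and *LCR67* are higher in *fhy3* and the other 8 lower, and no panel has overlapping genotypes.

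Of the 84 probe sets at least 2-fold higher at both dawns, 42 had 1 gene name, and 10 of those carried a gene symbol rather than a locus code alone. Next to AT5G41660 by the fitted difference was AT1G47400, with 523 and 731 in *fhy3*, against 62 and 102.9 in wild type (2.95 ± 0.30, adjusted p = 0.0693). AT5G03090 had 438 and 387 in *fhy3*, against 91.7 and 49.9 in wild type. AT5G44570 was uneven between days, with 292 and 128 in *fhy3*, against 2.5 and 62.8 in wild type. AT4G12490 and AT4G12500, which lie within 2 gene places of each other on chromosome 4 of the TAIR10.1 assembly, were both 2-fold higher. AT4G12500 had 105 and 217 in *fhy3*, against 22.7 and 42.5 in wild type, and AT4G12490, named after its values were seen, had 68.2 and 225 in *fhy3*, against 27.2 and 62.1 in wild type. Among the rest of the 15 highest with a mean of at least 100 in *fhy3*, AT1G07050, AT2G16005, AT1G65500, AT3G57010, AT4G16146, AT1G14960, AT2G37870, AT3G17110, and AT5G05250 had log2 differences from 1.64 to 2.29 and adjusted p from 0.0531 to 0.3. With time as a block, AT1G47400 (adjusted p = 0.0125), AT4G12500 (0.0174), AT5G03090 (0.0353), AT1G07050, AT1G65500, AT3G57010, AT1G14960, AT3G17110, and AT5G05250 passed.

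Genes with a symbol among them came from several processes. *BHLH101*, a transcription factor gene that is induced when iron is scarce, had 84 and 139 in *fhy3*, against 18 and 25.9 in wild type (2.25 ± 0.28, adjusted p = 0.0787). Beside it on the iron list, *PYE*, a regulator of iron balance, had 235 and 279 in *fhy3*, against 154 and 173 in wild type, while its partner *ILR3* had 1387 and 1345 in *fhy3*, against 1564 and 1583 in wild type. *M17*, a transcript of the maturing seed, had 83.5 and 64.7 in *fhy3*, against 3.5 and 7.7 in wild type (1.88 ± 0.16, adjusted p = 0.0512). Its wild type signals were both under the floor of 20, so the difference is relative to that floor. *LEA4-5*, which encodes a late embryogenesis abundant protein and was picked out after its values were seen, had 74.4 and 54.8 in *fhy3*, against 17.9 and 33.6 in wild type. *OCT1*, a carnitine transporter, had 767 and 763 in *fhy3*, against 371 and 298 in wild type. The defensin *PDF2.1* had 85.9 and 103 in *fhy3*, against 39 and 35.1 in wild type. *UGT84A3*, a glucosyltransferase that acts on phenylpropanoids, had 209 and 300.0 in *fhy3*, against 92.2 and 143 in wild type, and the subtilase *ATSBT5.2* had 403 and 447 in *fhy3*, against 198 and 199 in wild type. The root hair expansin *EXPA7* had 78.7 and 128 in *fhy3*, against 38.3 and 52.8 in wild type. None of the genes in these sentences passed the test, while with time as a block *BHLH101* (adjusted p = 0.0258) and *M17* (adjusted p = 0.0353) did. The genotypes did not overlap in any of them, and *ILR3* was the one with lower values in *fhy3*. Of all probe sets, 23.2% had *fhy3* above and 26.1% below. Most of these genes were chosen as 2-fold apart at both times, which favours a lack of overlap. The 2 seed markers measured summed to 104 and 90 in *fhy3*, against 28.5 and 23.7 in wild type. Only 1 of them, *M17*, had both *fhy3* signals above both of wild type, and the other overlapped between genotypes. The gap in the sums was thus mostly that of *M17*, and the part of seed RNA in these values was not tested.

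Of the 96 probe sets at least 2-fold lower at both dawns, 43 had 1 gene name, and 6 of those carried a symbol: *LHY*, *CCA1*, *RVE8*, *HYH*, *IQD23*, and *SBT5.4*. AT1G66100 had 77.3 and 59.8 in *fhy3*, against 576 and 391 in wild type (-2.80 ± 0.24, adjusted p = 0.0525). AT5G01790 had 49.3 and 58.7 in *fhy3*, against 168 and 258 in wild type, and AT4G39550 had 53.5 and 63.5 in *fhy3*, against 229 and 172 in wild type. AT3G47010, AT4G22510, AT5G35940, and AT5G60250 completed the 15 lowest with a mean of at least 100 in wild type, with log2 differences from -1.66 to -1.55 and adjusted p from 0.0725 to 0.292. With time as a block, AT1G66100 (adjusted p = 0.0125) and AT5G01790 (adjusted p = 0.0339) passed. The subtilase *SBT5.4*, which passed with the block alone (adjusted p = 0.0484), had 26.3 and 28.5 in *fhy3*, against 58.9 and 70.3 in wild type. *IQD23* encodes a protein of the IQ67 domain family, which binds calmodulin, and had 93.8 and 129 in *fhy3*, against 229 and 275 in wild type. Of the 12 members of that family measured, 3 were at least 1.5-fold lower at both times: besides *IQD23* these were *IQD24*, with 248 and 227 in *fhy3*, against 433 and 505 in wild type, and *IQD22*, with 89.5 and 124 in *fhy3*, against 162 and 207 in wild type. None of the family was 1.5-fold higher, and its median was -0.21. Over all probe sets tested, 1.92% were 1.5-fold lower at both times and 1.73% higher, so none higher among 12 is near that share. The family was looked at after these values were seen.

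By chromosome, 3 named probe sets on chromosome 3 were 2-fold higher and 10 were 2-fold lower (0.15% and 0.499% of 2003 measured), while on chromosome 1 there were 14 and 8 of 2598, on chromosome 2 there were 9 and 5 of 1500, on chromosome 4 there were 6 and 5 of 1457, and on chromosome 5 there were 9 and 12 of 2333. By mean signal, the share at least 2-fold apart in either direction was 1.23% of probe sets between 20 and 100, 1.1% from 100 to 500, 0.643% from 500 to 2000, and 0.456% at 2000 or more, with no test of these shares.

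The dawn arrays were then read beside the single arrays at 32 h (subjective afternoon) and 40 h (subjective night). Over all probe sets tested, 1122 (6.29%) were at least 2-fold higher in *fhy3* and 437 (2.45%) at least 2-fold lower at 32 h, and 1003 (5.62%) and 346 (1.94%) at 40 h, so each single dawn array pair held fewer such probe sets than either of the other times. Of the 84 probe sets higher at dawn, 62 were also 2-fold higher at 32 h, 38 at 40 h, and 33 at both. Of the 96 lower at dawn, 48 were also 2-fold lower at 32 h, 35 at 40 h, and 25 at both, while 4 at 32 h and 17 at 40 h were at least 2-fold higher in *fhy3*. The genes 2-fold higher at all 4 times included *BHLH101*, *EXPA7*, *OCT1*, AT1G47400, AT5G03090, and AT5G05250, and those 2-fold lower at all 4 times included AT1G66100, AT4G39550, AT3G47010, AT5G01790, and AT1G22910.

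**Figure D4:**
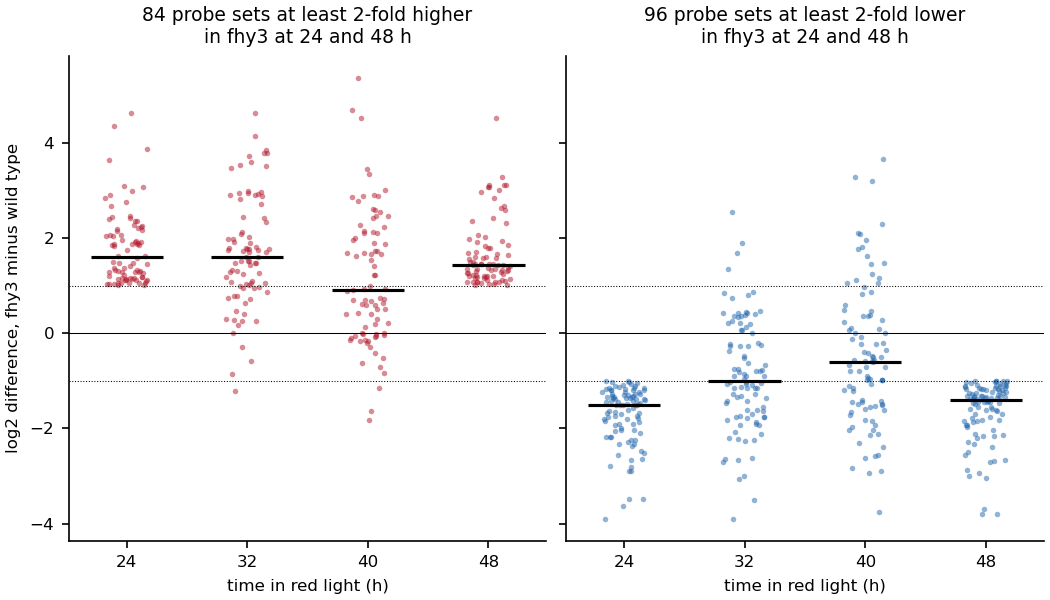
Log2 difference, *fhy3* minus wild type, at 24, 32, 40, and 48 h in red light for the 84 probe sets at least 2-fold higher (left) and the 96 at least 2-fold lower (right) at 24 and 48 h, with 1 point a probe set and black bars at the medians. At 32 h the medians were 1.59 and -1.0, and at 40 h they were 0.90 and -0.60, with 17 of the 96 at least 2-fold higher in *fhy3* at 40 h.

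Some of the probe sets lower in *fhy3* were ones with a dawn peak in wild type. Of the 96, 22 (22.9%) had both wild type dawn signals at least 2-fold above both the 32 h and the 40 h signal of wild type, against 123 (0.689%) of all probe sets tested. The choice of the 96 used the same wild type dawn arrays, so high dawn values in wild type favour both properties, and the share is a description. In *fhy3* none of the 96, and 8 of all probe sets (0.0448%), had such a dawn peak. The named ones were *LHY*, *CCA1*, *RVE8*, *HYH*, *SBT5.4*, AT1G64500, AT2G41250, AT3G56290, AT4G15430, AT5G40590, and AT5G55570. AT5G55570 had 158 and 137 in *fhy3* at dawn, against 384 and 358 in wild type. At 32 h and 40 h it had 142 and 138 in *fhy3*, against 38.1 and 49.6 in wild type, a level in *fhy3* that hardly moved between the 4 arrays. With time as a block, AT5G55570 (adjusted p = 0.0437), AT1G64500 (0.0353), AT2G41250 (0.0484), AT3G56290 (0.0484), and AT4G15430 (0.0389) were called lower at dawn. AT2G41250 had 297 and 335 in *fhy3* at dawn, against 839 and 782 in wild type. Its direct neighbour in the annotation on chromosome 2 is *M17*, which was higher in *fhy3*.

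Whether a dawn difference was unlike that at the other times was tested with all 8 arrays, as the difference at dawn minus the mean of those at 32 h and 40 h. The test called 4 probe sets, all negative (0.0224%): *LHY* (-3.85 ± 0.19), *CCA1* (-3.43 ± 0.15), and 2 with no gene name, with an adjusted p of 0.0402 for each, while 2241 had an unadjusted p under 0.05. At 32 h *LHY* had 363 in *fhy3*, against 198 in wild type, and at 40 h it had 68.7 in *fhy3*, against 33 in wild type. *CCA1* had 245 in *fhy3*, against 182 in wild type at 32 h, and 68.3 in *fhy3*, against 15.6 in wild type at 40 h. Of the 3 times of day, both were lower in *fhy3* at dawn alone, and across the 4 arrays *LHY* spanned 68.7 to 363 in *fhy3*, against 33 to 1878 in wild type. *RVE8* (-2.94 ± 0.19, adjusted p = 0.0642) and AT5G55570 (-3.02, adjusted p = 0.0628) did not pass. With 1 of the 4 dawn arrays left out the lowest adjusted p ran from 0.278 to 0.666, with 1 residual df, so none could be called, and none was called with the minimum signal set on the mean of all 8 arrays. The calls were not all negative under every setting: there were 5 positive and 35 negative with a mean of at least 100, 331 and 247 with no filter, and 299 and 411 with a floor of 100. The single arrays at 32 h and 40 h were assumed to vary like the dawn arrays.

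Photosynthesis genes were mostly a little lower in *fhy3*, with none past the test. All 4 Calvin cycle and photorespiration genes measured had both *fhy3* signals below both wild type signals, as did 26.1% of all probe sets, with a median log2 difference of -0.41, against -0.00 over all probe sets. *PRK*, which makes the acceptor of carbon dioxide, had 4086 and 4056 in *fhy3*, against 5410 and 5993 in wild type. *SBPASE* had 2815 and 2649 in *fhy3*, against 3546 and 3600 in wild type, and hydroxypyruvate reductase, *HPR*, had 3672 and 3256 in *fhy3*, against 4795 and 4547 in wild type. Rubisco activase, *RCA*, had 10260 and 10039 in *fhy3*, against 10793 and 10871 in wild type. Of the 9 photosystem and electron transport genes, 6 had both *fhy3* signals below wild type and 1 above, where 26.1% of all probe sets lay below and 23.2% above, with a median of -0.17. The thylakoid protein gene *CaS* had 2882 and 2638 in *fhy3*, against 4471 and 4334 in wild type (-0.68 ± 0.11, adjusted p = 0.132), the photosystem I gene *PSAN* had 4155 and 4512 in *fhy3*, against 5875 and 6158 in wild type, and *PSBY* of photosystem II had 6249 and 5443 in *fhy3*, against 6736 and 7247 in wild type. Of the 5 light-harvesting genes, 3 lay below and 1, *LHCB4.3*, above, beside the same shares of 26.1% and 23.2%: it had 245 and 321 in *fhy3*, against 163 and 214 in wild type. *LHCB4.2* had 5535 and 4853 in *fhy3*, against 6268 and 6563 in wild type, and *LIL3:2* had 3089 and 2609 in *fhy3*, against 3753 and 3547 in wild type. Among the 10 chlorophyll synthesis genes the median was -0.07, and the lowest was *CHLM*, the methyltransferase of the magnesium branch, with 2477 and 2349 in *fhy3*, against 3618 and 3439 in wild type (-0.55 ± 0.11, adjusted p = 0.159). The leaf marker sum, which shares some of these genes, was also lower in *fhy3*, and its part in these values was not tested.

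**Figure D5:**
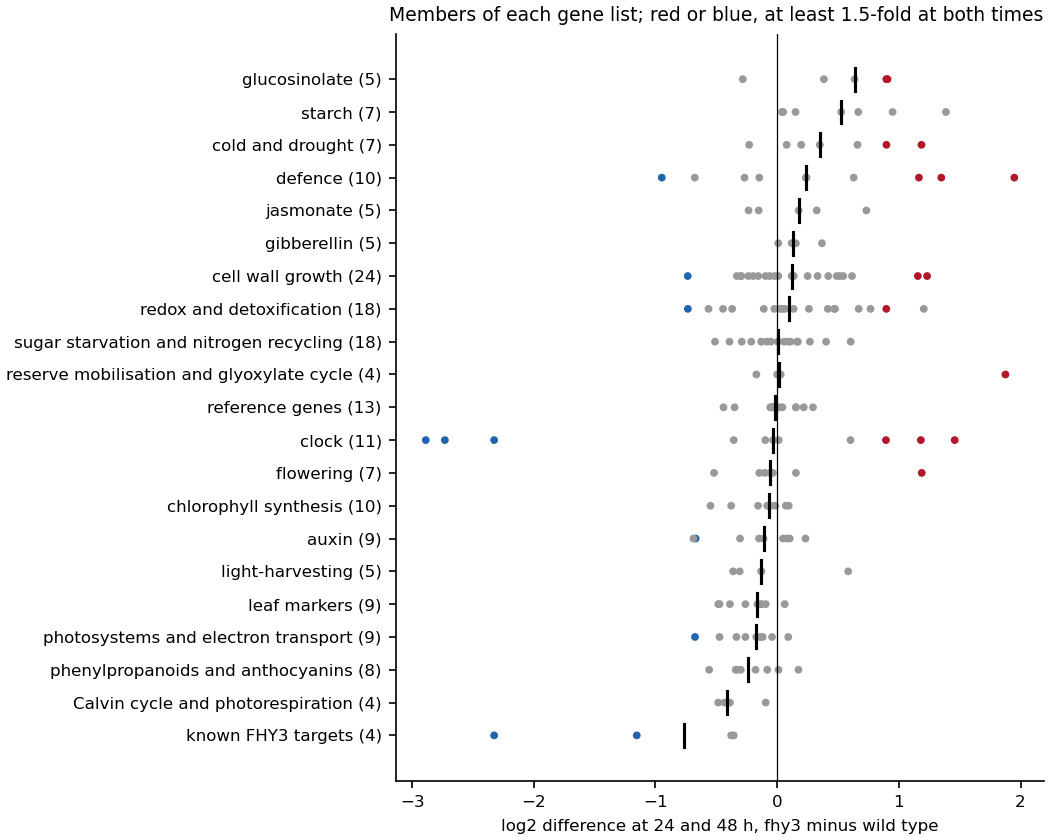
Log2 difference at dawn, *fhy3* minus wild type, for each measured member of the gene lists with at least 4 members measured (number in brackets), with a black bar at each list's median. Red and blue points are genes at least 1.5-fold higher or lower in *fhy3* at both times, and the clock list has the widest span, -2.89 to 1.46.

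Several lists of stress and storage genes had medians above 0, with 1 call among them, the defensin *LCR67*. At 1.5-fold at both times, 308 probe sets were higher (1.73%) and 342 lower (1.92%). On the cold and drought list 2 of 7 genes were 1.5-fold higher and none lower, with a median of 0.35. The dehydrin *LTI30* had 979 and 1090 in *fhy3*, against 509 and 404 in wild type (1.19 ± 0.16, adjusted p = 0.0932), and *COR15B*, which protects the chloroplast in cold, had 222 and 405 in *fhy3*, against 132 and 197 in wild type. The clock-regulated gene *CCL* had 3639 and 3640.4 in *fhy3*, against 1997 and 2658 in wild type, and the dehydrin *COR47* had 2306 and 2249 in *fhy3*, against 1992 and 1979 in wild type. Of 10 defence genes, 3 were 1.5-fold higher, *LCR67*, *PDF2.1*, and the osmotin *OSM34*, which had 1430.2 and 3046 in *fhy3*, against 779 and 1113 in wild type. Of the same 10, 6 had both *fhy3* signals above and 4 below both of wild type, where 23.2% and 26.1% of all probe sets did. Among the 10, 1 was 1.5-fold lower: *WRKY22*, a transcription factor gene of the immune response, named after its values were seen. It had 36.5 and 36.6 in *fhy3*, against 77.5 and 64.2 in wild type (-0.95 ± 0.14, adjusted p = 0.107). *PDF2.5* had 232 and 308 in *fhy3*, against 208 and 143 in wild type.

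On the glucosinolate list, defence compounds of the cabbage family, 4 of 5 genes had both *fhy3* signals above both of wild type, where 23.2% of all probe sets did. *AOP3*, which modifies their side chains, had 1693 and 1901 in *fhy3*, against 969 and 944 in wild type (0.91 ± 0.12, adjusted p = 0.0908). *GSTU20*, a glutathione transferase on this list and on that of detoxification, had 2352 and 2622 in *fhy3*, against 1401 and 1269 in wild type. *BCAT4*, at the entry to methionine chain elongation, had 2019 and 2298 in *fhy3*, against 1625 and 1181 in wild type, and the glucosyltransferase *UGT74B1* had 1013 and 1183 in *fhy3*, against 841 and 836 in wild type. The redox and detoxification list of 18 had 1 gene 1.5-fold higher, *GSTU20*, and 1 lower, the chloroplast reductase *AOR*, with 1019.7 and 1075 in *fhy3*, against 1741 and 1741 in wild type (-0.73, adjusted p = 0.115). *GSTU26* had 392 and 440.5 in *fhy3*, against 213 and 319 in wild type, while *GSTU25* overlapped between genotypes, with 99.2 and 611 in *fhy3*, against 81.1 and 140.5 in wild type.

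Among genes of carbon stores, *ICL*, the isocitrate lyase of the glyoxylate cycle, had 473 and 1017 in *fhy3*, against 311 and 115 in wild type, a difference of 0.60 on the log2 scale at 24 h and 3.15 at 48 h. Of the 7 starch genes, 6 had both *fhy3* signals above both of wild type, where 23.2% of all probe sets did. Their median was 0.53 over both dawns, 0.30 at 24 h, and 0.22 at 48 h, and none was 1.5-fold higher at both times. Some of the 6 gaps were very small. *SBE2.2* had 879 and 859.0 in *fhy3*, against 713 and 858.8 in wild type. *PWD* had 1215 and 1251 in *fhy3*, against 1170 and 1212 in wild type, and another probe set given that name overlapped. *DPE1*, which acts on the products of starch breakdown, had 302 and 335 in *fhy3*, against 174 and 231 in wild type. *APL3*, a subunit of the first enzyme of starch synthesis, had 344 and 389 in *fhy3*, against 106 and 338 in wild type. The 18 genes of sugar starvation and nitrogen recycling had a median of 0.01, with none 1.5-fold apart at both times. Of these, *AKINBETA1* had 462 and 371 in *fhy3*, against 749 and 465 in wild type, *WRKY6* had 177 and 275 in *fhy3*, against 136 and 155 in wild type, and *BGLU46* had 606 and 673 in *fhy3*, against 525 and 445 in wild type.

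Of 24 cell wall growth genes measured, 7 had both *fhy3* signals above and 6 below both of wild type, near the shares over all probe sets (23.2% above and 26.1% below), with a median of 0.12, against -0.00 over all probe sets. Besides *EXPA7*, *EXLA1* had 381 and 601 in *fhy3*, against 227 and 182 in wild type, *EXPA18* of root hairs had 352 and 428 in *fhy3*, against 246 and 261 in wild type, and *EXPA4* had 643 and 630.3 in *fhy3*, against 427 and 447 in wild type. *EXPA8* was lower, with 550 and 568 in *fhy3*, against 973 and 889 in wild type (-0.73, adjusted p = 0.124). *EXPA7* and *EXPA18* are also 2 of the 3 root markers, whose summed signal was higher in *fhy3*. Most of the gap in that sum was that of these 2 genes, and the part of root RNA in these values was not tested. *EXO*, a growth gene that responds to brassinosteroid, had 575 and 493 in *fhy3*, against 1261 and 863 in wild type. The 9 auxin genes had a median of -0.11, with 5 below both of wild type and none above. Of the 9, 1 was at least 1.5-fold lower at both times, as were 1.92% of all probe sets. The 5 gibberellin genes had a median of 0.13, with 3 above and none below, beside the same shares of 23.2% above and 26.1% below. Of the auxin genes *WAG2*, a kinase that steers auxin transport, had 150 and 105 in *fhy3*, against 186 and 219 in wild type, short of 1.5-fold at 24 h.

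Of 7 flowering genes, 1 stood apart: *ATC*, a relative of the floral repressor TFL1, had 365 and 422 in *fhy3*, against 219.8 and 135 in wild type (1.19 ± 0.26, adjusted p = 0.173). The 8 phenylpropanoid and anthocyanin genes had a median of -0.24 with none 1.5-fold apart at both times, and *UGT78D1*, a flavonol glycosyltransferase, had 156 and 163 in *fhy3*, against 178 and 309 in wild type. The 13 reference genes measured, of the kind used to scale other assays, had a median of -0.02 and none was 1.5-fold apart at both times. The widest gap among them was in *UBC28*, with 4714 and 4317 in *fhy3*, against 6681 and 5614 in wild type.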

How the data were processed

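RNA of whole *Arabidopsis* seedlings was hybridized to ATH1 arrays, and the intensity of each probe set was deposited by the authors on a linear scale. The labels name MAS5, the methods of the study D-chip with joint normalization to other arrays, and which of them made the values was not settled. Depth does not apply to arrays. Their number, 2 a side, limits the precision. Control probe sets and those with a mean under 20 over the 4 dawn arrays were left out, signals under 20 were set to 20, and log2 signals were compared with limma 3.58.1 in R 4.3.3 (lmFit and eBayes, 2 residual df, Benjamini-Hochberg adjustment over 17846 probe sets, threshold 0.05), after a test on simulated data. A 2-fold difference at both times was used as a description. No label says that samples were separate cultures. Dawn was set against 32 h and 40 h in a fit of all 8 arrays.

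Probe sets were named where the table supplied pairs them with 1 gene of TAIR10.1, and 10 clock probe sets by a match of the study's fitted means within 0.001. Probe sets without a name were counted only. Named in the text are the 15 highest and 15 lowest genes 2-fold apart with a mean of at least 100, genes called, clock, light signalling, and FHY3 target genes, up to 4 members of each list, and genes the study names. Gene symbols among the 2-fold sets and other single genes were added after their values were seen. Members, lists, and tests were chosen with earlier results of these data known. Other normalizations, filters, floors, variance settings, a time block, and leaving out each array were tried. Lists of abscisic acid and of raffinose and trehalose genes had no named member. The brassinosteroid (2 measured), jasmonate (5), heat shock (2), and nutrition (2) lists had medians of -0.40, 0.18, 0.21, and 0.35, with no call.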

Additional observations from a re-analysis of the deposited data

Results flagged for a closer look

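In 4 probe sets the difference between *fhy3* and wild type at dawn was unlike the mean of the differences at 32 h and 40 h, by limma over 8 arrays with an adjusted p of 0.0402 each. The log2 values were -3.85 for *LHY*, -3.43 for *CCA1*, and -3.04 and -3.45 for 2 probe sets with no gene name. The first of these 2 had 54.2 and 51.5 in *fhy3* at dawn, against 244 and 229 in wild type, and at 32 h it had 85.4 in *fhy3*, against 26.8 in wild type. The second had 33.6 and 31.2 in *fhy3* at dawn, against 138 and 157 in wild type, and at 40 h it had 253 in *fhy3*, against 15.7 in wild type. There was 1 array a genotype at 32 h and at 40 h.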

How the results depend on the processing

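Calls at an adjusted p under 0.05 (4 higher and 22 lower) depended on the settings of limma. They numbered 7 higher with each array divided by its median, 27 higher and 87 lower with a mean of at least 100, 0 and 1 with no filter, 2 lower with a floor of 100, 40 higher and 109 lower with a variance trend, and 2 and 8 among named genes alone. With time in red light as a block, arrays were paired by day and not by a replicate number. Every title carries the same replicate number. That fit had 1 residual df. It called 38 higher and 64 lower, which held all 26 and added *GI*, *LUX*, *HYH*, *BHLH101*, and *M17* among others. Of the 26, 17 were among the calls with a mean of at least 100 and 1 among those with a floor of 100. Leaving out 1 array gave 0 calls in each direction each time, with 1 residual df and the lone array assumed to vary like the others; unadjusted p was under 0.05 in 1251 to 2580 probe sets. Probe sets 2-fold higher numbered 51 with a mean of at least 100, 37 with a floor of 100, 42 among named genes, and 65 to 203 with 1 array left out. Those 2-fold lower numbered 57 with a floor of 100, 43 among named genes, and 108 to 138 with 1 array left out. At 1.5-fold, a size chosen after seeing the data, they numbered 308 higher and 342 lower. Dawn differed from the other times in 40 probe sets with a mean of at least 100, 578 with no filter, 710 with a floor of 100, 28 with a trend, 0 with the mean of all 8 arrays at least 20, and 0 with 1 array left out, against 4 as reported. The cause of these shifts was not tested. With 1 array left out, log2 differences ranged from -0.06 to 0.24 for *HAT2*, -0.16 to 0.18 for *PRR5*, -0.12 without *fhy3* at 48 h, -0.11 to 2.52 for *GSTU25*, -0.25 to 0.06 for *PRR9*, and -0.13 to 0.07 for *ELF3*, and these changed sign. For 113 genes under settings with 4 arrays, 1111 of 1222 values kept direction and side of the threshold, 20 lost the call, 91 gained one, and 0 changed direction. Signals near 20 have the least precision, since the floor hides their size.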
